A study of Mus musculus with 27 samples.

Results

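The genes described are 6 genes of voltage-gated sodium channel subunits: Scn4a, Scn7a, Scn10a, Scn2b, Scn3b and Scn4b. They were taken by symbol from a count table of 55487 Ensembl genes, and all 6 were found. RNA sequencing of total RNA was made from heart ventricles of mice in 27 libraries, to follow normal postnatal expression and to compare models with more or less MBNL1, a protein that binds RNA and controls its splicing and stability. MBNL1 loss of function is labelled KO and was studied at postnatal day 60, in 5 libraries taken 7 days after knockout (with 4 controls of the same label) and in 4 libraries taken 14 days after it (with 3 controls). MBNL1 gain of function is labelled Tg and was studied at postnatal day 7, in 4 libraries with 3 controls. A further 4 control libraries came from postnatal day 1. The controls are labelled only as controls. The sources used here give neither strain nor sex, nor how the knockout was made, which part of the gene was deleted or what drives the transgene. Nothing says that replicate samples came from separate animals, so p-values reflect the spread among the samples only, and part of it may be technical.

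A voltage-gated sodium channel opens when the membrane depolarizes, and the inward sodium current gives the fast upstroke of the action potential in working cardiomyocytes. An alpha subunit forms the pore and carries the voltage sensors. Beta subunits are small proteins with a single membrane span that change the gating and surface level of the alpha subunit and take part in cell adhesion. Among the alpha subunits, Scn4a encodes the channel known from skeletal muscle, Scn10a a channel known from sensory neurons and linked to cardiac conduction in humans, and Scn7a an atypical channel known for sodium sensing in glia. Among the beta subunits, Scn2b and Scn4b encode proteins joined to the alpha subunit by a disulfide bond, whereas the protein of Scn3b binds without one. Another 8 voltage-gated sodium channel genes are given below only as counts.

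Expression levels are given as CPM (counts-per-million), with library sizes scaled by TMM, a method that allows for library composition. In the annotation GENCODE M21 on the mouse build GRCm38, Scn4a (ENSMUSG00000001027) lies at chr11:106318592-106353288 and Scn7a (ENSMUSG00000034810) at chr2:66673425-66784914, both on the minus strand. The locus of Scn10a (ENSMUSG00000034533) is chr9:119608456-119719322, also on the minus strand. Chromosome 9 also holds the 3 beta subunit genes, all on the plus strand: Scn3b (ENSMUSG00000049281) at chr9:40269217-40291618, Scn2b (ENSMUSG00000070304) at chr9:45117782-45130070 and Scn4b (ENSMUSG00000046480) at chr9:45138395-45154152. Scn2b and Scn4b are neighbours, 8324 bases apart with 0 annotated genes between them. No exon of the 6 genes overlapped an exon of another annotated gene.

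The RefSeq promoter table (GRCm38.p6) held 5 of the 6 genes, all but Scn3b. Sequence is shown for the pair whose levels moved most alike (Scn4a and Scn4b), for the gene next to Scn4b (Scn2b) and for Scn7a, whose window held the most kinds of motif. Each run is the part, outside GENCODE exons, of the 250 bases before the RefSeq start, read 5′ to 3′ on the gene's strand. Capitals mark matches of the motifs other than the E-box.
Scn4a, chr11:106349391-106349454, minus strand: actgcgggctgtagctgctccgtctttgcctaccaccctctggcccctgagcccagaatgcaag
Scn4b, chr9:45138374-45138394, plus strand: gtcgtccgcagcgggcaagcc
Scn2b, chr9:45117626-45117781, plus strand: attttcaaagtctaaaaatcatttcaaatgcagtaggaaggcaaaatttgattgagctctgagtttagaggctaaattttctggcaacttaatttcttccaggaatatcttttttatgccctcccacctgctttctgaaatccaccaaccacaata
Scn7a, chr2:66784915-66785160, minus strand: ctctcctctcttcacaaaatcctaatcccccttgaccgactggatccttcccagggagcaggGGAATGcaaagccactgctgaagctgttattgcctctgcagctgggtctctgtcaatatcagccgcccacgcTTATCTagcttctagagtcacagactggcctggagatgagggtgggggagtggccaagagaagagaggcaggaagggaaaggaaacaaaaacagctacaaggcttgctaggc

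Motifs were searched on both strands of the full 250 bases. The shares given are of the 32851 promoter windows of the same length in the table. The E-box, CANNTG, lay in 66.2% of them, the GATA motif, AGATAA, in 9.99% and the M-CAT motif, GGAATG, in 12.6%. The TATA motif, TATAAA, lay in 12.4%. The ERR motif, AAGGTCA, lay in 4.08%. The T-box motif, GGTGTGA, lay in 3.33%. The MEF2 and CArG motifs lay in 2.92% and 1.47%. In Scn7a, the M-CAT motif begins at position -188 from the start, and the GATA motif, printed as its reverse complement, begins at position -116. An E-box also lies in that window at position -150. Scn2b held 2 E-boxes, and Scn10a held the M-CAT motif at position -73, inside annotated exon sequence that is not shown. The windows of Scn4a and Scn4b held none of the 8 motifs, but 186 and 229 of their 250 bases lay in annotated exons of the same gene. That of Scn4a also lies inside its GENCODE locus. The result thus says little about sequence before the annotated genes. A match is a description of the letters and no evidence of binding.

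Total counts ran from 21929347 to 25675115 per library, so a count of 0 allows up to 3 counts, or 0.0958 to 0.188 CPM depending on the library. Such limits cover counting error only. Among the day 60 libraries, KO libraries 1 and 5 of 7 days stood apart on the second principal component, which held 12.5% of the variance (40.4 and 43.9, against -25.3 to 9.05 in the others). KO library 3 of 7 days and KO library 8 of 14 days stood at the ends of the fourth component (26.97 and -24.6). Mbnl1 itself was at 2935 to 4080 CPM in Tg libraries, against 96.9 to 105 CPM in their controls. In libraries labelled KO it was at 102 to 219 CPM, against 146 to 153 CPM in controls at 7 days, and at 115 to 137 CPM, against 151 to 170 CPM, at 14 days. The 7-day ranges overlap, and the 14-day log2 fold change was -0.34 ± 0.09 (SE; edgeR adjusted p = 0.0120). That call was lost without control library 5 (edgeR adjusted p = 0.0618), with all 27 libraries in 1 fit (edgeR adjusted p = 0.117) and with a replicate block (-0.19, edgeR adjusted p = 0.183). Gene counts do not resolve which exons were read, and the deleted part is not given, so these values do not check the KO labels.

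Markers of other cells moved with the KO label. At 7 days 7 of 8 cardiomyocyte markers were lower, with summed levels of 19195 to 45169 CPM in libraries labelled KO and 65758 to 71480 CPM in controls. Also at 7 days, 5 of 8 fibroblast markers and 6 of 6 macrophage markers were higher. At 14 days 7 of 8 cardiomyocyte markers were lower (42285 to 50772 CPM, against 67536 to 73641 CPM), and 7 of 8 fibroblast and 6 of 6 macrophage markers were higher. Of the 5 atrial cardiomyocyte markers 4 were tested. At 7 days the 5 summed to 283 to 2555 CPM in libraries labelled KO and 91.1 to 237 CPM in controls. Of those tested, 1 was higher and 1 lower, with a median log2 fold change of -0.70. The higher 7-day sum thus does not describe the tested atrial markers as a set. At 14 days the sums were 3367 to 4226 CPM, against 138 to 216 CPM, with 2 higher, 0 lower and a median of 0.62. Of the smooth muscle and pericyte markers 4 of 5 were lower and 1 higher at 7 days, and 2 lower and 1 higher at 14 days. Of the endothelial markers 4 of 6 were lower at 7 days and 2 at 14 days, with 0 higher. In bulk tissue, fewer cells of a type and less RNA per cell cannot be told apart, and the part of these shifts in the results below was not tested. As for the channels' best known tissues, the skeletal muscle markers Myh2, Myh4 and Tnnc2 were at 3 counts or fewer in every library, and the 8 markers of that list summed to 1.12 to 3.11 CPM in all libraries. The 8 neuron markers summed to 18.6 to 59.6 CPM in libraries labelled KO at 7 days, against 11.4 to 15.6 CPM in controls. Only 3 of them were tested there, with 1 higher and 2 lower and a median log2 fold change of -0.80. The higher sum thus does not describe the tested markers as a set. At 14 days the sums were 17.1 to 24.95 CPM, against 17.1 to 18.3 CPM, with 1 of 3 tested markers higher and 1 lower. In Tg libraries the sum was 10.7 to 12.4 CPM, against 11.6 to 14.6 CPM in controls, with 1 of 4 tested markers higher and 1 lower. Between 3 and 5 of the 8 were above 3 counts in all libraries of a group, whereas Chat in every library, and Th and Snap25 in every day 60 library, were at 3 counts or fewer.

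**Figure D1:**
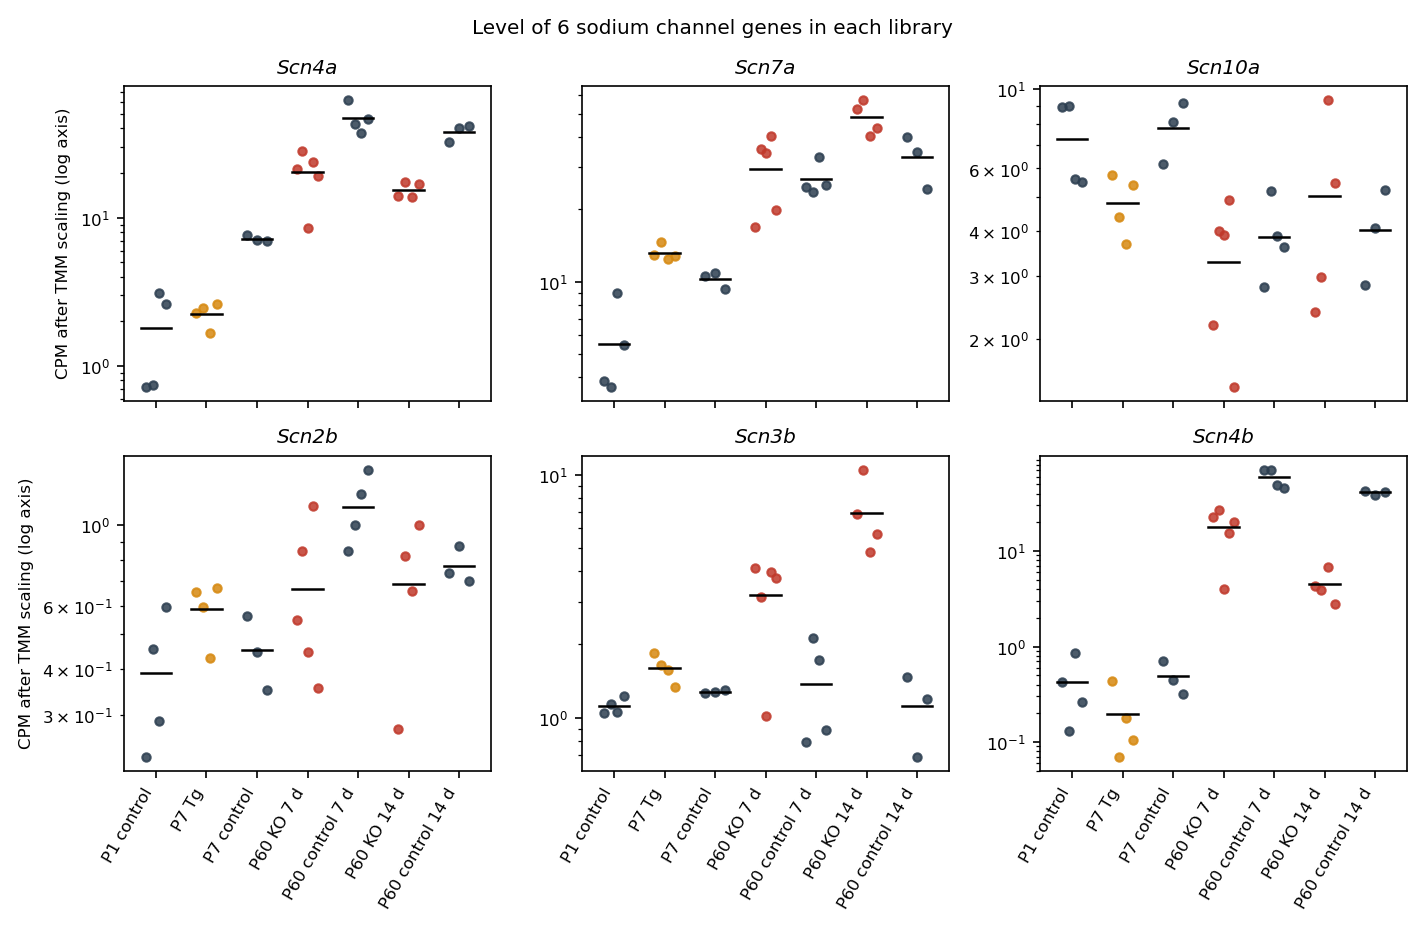
Level of each of the 6 genes in each of the 27 libraries, in CPM after TMM scaling on a log axis, with a bar at the group mean (P, postnatal day; d, days after knockout). For Scn4b all 9 libraries labelled KO, at 2.76 to 26.97 CPM, lie below the day 60 controls, at 38.9 to 70.4 CPM, while Scn3b reaches 10.4 CPM in a KO library of 14 days.

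The comparisons at day 60 asked how ventricles labelled KO differed from controls of the same time label. The beta subunit gene Scn4b and the alpha subunit gene Scn4a were lower in libraries labelled KO at both times, and the beta subunit gene Scn3b was higher at both. At 14 days Scn4b averaged 4.47 ± 1.74 CPM in libraries labelled KO (SD, n = 4) and 41.2 ± 2.07 CPM in controls (SD, n = 3), a 9.22-fold lower mean, and Scn3b averaged 6.95 ± 2.48 and 1.12 ± 0.398 CPM, a 6.22-fold higher mean. At 7 days 3 of the 6 genes were called, 1 higher and 2 lower, beside 50.7% of the 15167 genes tested (26.4% higher and 24.3% lower). At 14 days 4 were called, 2 higher and 2 lower, beside 44.2% of 14976 genes (21.8% higher and 22.4% lower). The 7-day count is close to the background share. The 14-day count is above it, in a list of only 6 genes, and is not read as a result about the list. All 6 genes passed the filter on low counts in every comparison. The median log2 fold change of the 6 genes was -0.50 at 7 days and 0.07 at 14 days, against 0.03 and 0.01 over all genes tested. Scaled by total counts, 83.5% and not 52.0% of all calls at 7 days were higher, and 81.9% and not 49.4% at 14 days. Under that scaling, no called member of these comparisons changed direction.

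Scn4a, the skeletal muscle alpha subunit, was at 21.2, 28.3, 8.49, 23.9 and 19.2 CPM in the 5 libraries labelled KO at 7 days, against 61.9, 43.0, 37.0 and 46.5 CPM in the 4 controls. Every library labelled KO lay below every control, and library 3 was the lowest. This gave a log2 fold change of -1.23 ± 0.28 (SE; edgeR adjusted p = 0.0045). At 14 days it was at 14.0, 17.4, 13.8 and 16.8 CPM in libraries labelled KO, against 32.2, 40.5 and 41.6 CPM in controls. The groups again did not overlap, and the log2 fold change was -1.31 ± 0.13 (edgeR adjusted p = 2.7e-05). With KO libraries 1 and 5 left out together, the 7-day value was -1.21 ± 0.33 (edgeR adjusted p = 0.0118), and without library 3 it was -1.02 ± 0.17 (edgeR adjusted p = 0.0012). The 8 skeletal muscle markers summed to 1.86 to 3.11 CPM in libraries labelled KO at 7 days and to 1.72 to 2.61 CPM in their controls. Of the 2 tested at 7 days, 1 was lower and 0 higher. The median log2 fold change of the 8 cardiomyocyte markers was -1.25 at 7 days and -1.01 at 14 days. The part of these markers in the Scn4a values was not tested.

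Scn7a, the atypical sodium-sensing alpha subunit, had overlapping groups at 7 days, with 16.8, 35.6, 34.2, 40.5 and 19.9 CPM in libraries labelled KO, against 24.8, 23.6, 33.0 and 25.4 CPM in controls. The log2 fold change of 0.13 ± 0.25 did not pass the test (edgeR adjusted p = 0.677). Libraries 1 and 5, which stood apart on the second component, held the lowest values. Without them the value was 0.47 ± 0.13 and passed (edgeR adjusted p = 0.0104). Leaving out the lowest KO libraries raises the value by itself, so this fit is no support for a rise. The fibroblast markers summed to 3455 and 3744 CPM in those libraries, against 7170 to 8819 CPM in the other 3 labelled KO. At 14 days Scn7a was higher, at 52.4, 56.9, 40.5 and 43.7 CPM in libraries labelled KO, against 40.1, 34.7 and 24.3 CPM in controls. The lowest KO library lay just above the highest control. On the log2 scale the fold change was 0.54 ± 0.17 (edgeR adjusted p = 0.0261), and the call was lost when any of 4 of the 7 libraries was left out (KO 6 or 7, control 6 or 7; 0.36 to 0.70 over all 7). With all 27 libraries in 1 fit the value was 0.55 ± 0.26 and not called (edgeR adjusted p = 0.102), so that 3 and not 4 of the 6 genes were called at 14 days. Fibroblast markers summed to 4160 to 5175 CPM in these KO libraries and 1362 to 1507 CPM in controls, whereas Schwann cell markers summed to 25.9 to 30.7 and 33.8 to 38.1 CPM, with 3 of 7 tested markers lower and 0 higher.

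Scn10a, the alpha subunit known from sensory neurons, was low and uneven. At 7 days it was at 2.18, 4.02, 3.90, 4.89 and 1.46 CPM in libraries labelled KO, against 2.80, 5.18, 3.88 and 3.61 CPM in controls. KO libraries 1 and 5 were again lowest, and the log2 fold change of -0.24 ± 0.33 did not pass (edgeR adjusted p = 0.564). At 14 days the values were 2.38, 2.99, 9.31 and 5.47 CPM, against 2.83, 4.08 and 5.24 CPM in controls, and the log2 fold change of 0.31 ± 0.43 did not pass either (edgeR adjusted p = 0.598). The highest value came from KO library 8, which stood apart on the fourth component, and without it the value turned to -0.17 ± 0.32 (edgeR adjusted p = 0.690).

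Scn4b, a disulfide-linked beta subunit, was at 22.8, 26.97, 4.02, 15.4 and 20.1 CPM in libraries labelled KO at 7 days, against 70.4, 70.3, 48.9 and 46.1 CPM in controls. No KO library reached the lowest control, and library 3 was far below the other 4. Over the groups the log2 fold change was -1.73 ± 0.40 (edgeR adjusted p = 0.0048), and -1.47 ± 0.20 without library 3 (edgeR adjusted p = 0.000366). Without KO libraries 1 and 5 it was -1.92 ± 0.46 (edgeR adjusted p = 0.0060). At 14 days Scn4b was at 4.35, 3.90, 6.88 and 2.76 CPM in libraries labelled KO, against 43.0, 38.9 and 41.7 CPM in controls. All 4 KO libraries lay far below the controls, with a log2 fold change of -3.21 ± 0.23 (edgeR adjusted p = 3.6e-06). The median log2 fold change of the 8 cardiomyocyte markers was -1.25 at 7 days and -1.01 at 14 days.

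Scn3b, the beta subunit that binds without a disulfide bond, was at 4.11, 3.13, 1.02, 3.96 and 3.76 CPM in libraries labelled KO at 7 days, against 0.791, 2.12, 1.72 and 0.887 CPM in controls. Library 3 lay within the control range and the other 4 above it. Between the groups the log2 fold change was 1.19 ± 0.42 (edgeR adjusted p = 0.0365). This call was lost when any of 7 of the 9 libraries was left out, with values of 1.02 to 1.33 in those fits. It held without KO library 3 (1.42 ± 0.30, edgeR adjusted p = 0.0040) or without control library 2 (1.49). These held the lowest KO and the highest control value, so leaving either out enlarges a rise by itself. Without KO libraries 1 and 5 together it was 0.96 ± 0.46 and not called (edgeR adjusted p = 0.107). At 14 days Scn3b was at 6.91, 10.4, 4.78 and 5.68 CPM in libraries labelled KO, against 1.48, 0.690 and 1.19 CPM in controls. These groups were well apart, with a log2 fold change of 2.62 ± 0.34 (edgeR adjusted p = 0.000165) that ran from 2.36 to 2.85 when each library was left out in turn.

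Scn2b, the other disulfide-linked beta subunit, had only 6 to 28 counts per library. At 7 days it was at 0.546, 0.850, 0.447, 1.13 and 0.356 CPM in libraries labelled KO, against 0.851, 1.003, 1.22 and 1.42 CPM in controls. The groups overlapped through library 4, and the log2 fold change of -0.76 ± 0.35 did not pass (edgeR adjusted p = 0.0913). Without KO library 4 it was -1.02 ± 0.32 and passed (edgeR adjusted p = 0.0234). Library 4 held the highest KO value, so leaving it out enlarges a fall by itself and is no support for one. At 14 days the values were 0.275, 0.822, 0.659 and 1.002 CPM, against 0.738, 0.878 and 0.702 CPM in controls, with a log2 fold change of -0.16 ± 0.40 (edgeR adjusted p = 0.778).

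Whether the KO difference itself changed with time was tested in a fit of the 16 day 60 libraries. Of the 15951 genes tested with edgeR, 0% were called, none of the 6 genes among them; 1662 genes had an unadjusted p under 0.05, and DESeq2 called 141. For Scn4b the log2 fold change at 14 days minus that at 7 days was -1.46 ± 0.55 (unadjusted p = 0.0169, edgeR adjusted p = 0.364). For Scn3b this difference was 1.45 ± 0.61 (unadjusted p = 0.0289, edgeR adjusted p = 0.429). For Scn4a it was -0.06 ± 0.36, for Scn7a 0.43 ± 0.34, for Scn10a 0.57 ± 0.59 and for Scn2b 0.62 ± 0.55. None of these passed after adjustment. Between the control groups themselves, 14 against 7 days, 0.0305% of 16388 genes were called, 0.0122% higher and 0.0183% lower (5 by edgeR, with 1113 at an unadjusted p under 0.05, and 72 by DESeq2), and none of the 6 was. Scn4b was at 38.9 to 43.0 CPM in controls of 14 days and 46.1 to 70.4 CPM in those of 7 days, a log2 difference of -0.53 ± 0.22 (edgeR adjusted p = 0.677).

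**Figure D2:**
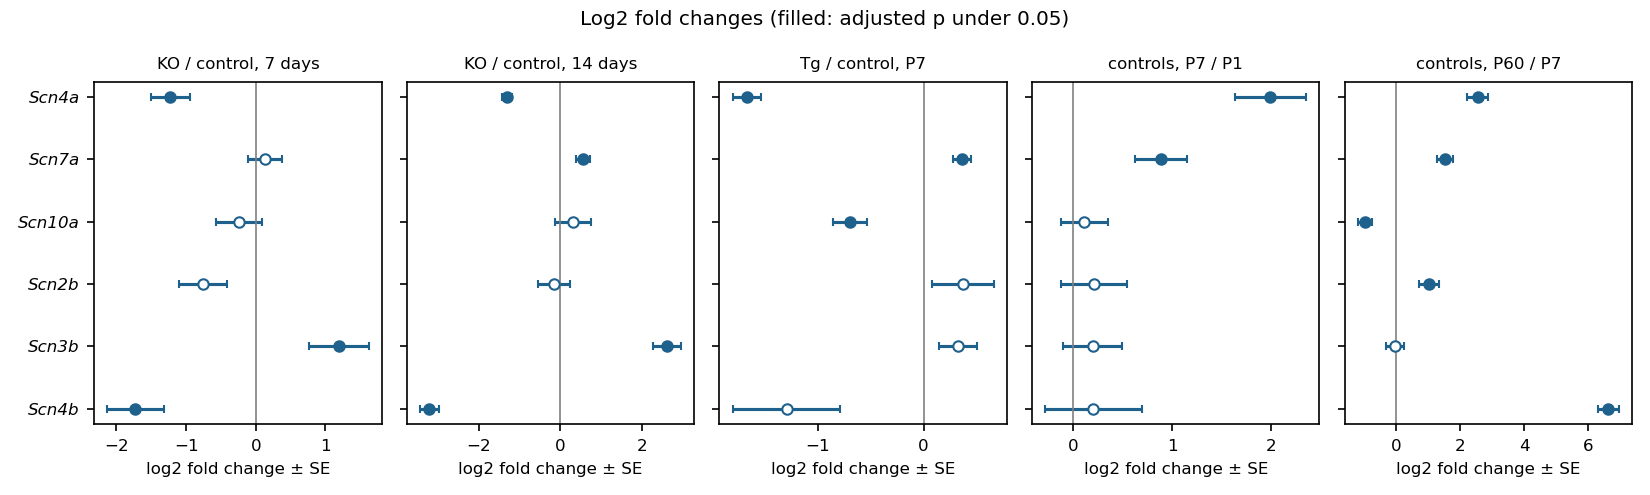
Log2 fold change ± SE of the 6 genes in 5 comparisons, filled where the edgeR adjusted p is under 0.05. Each panel has its own horizontal scale. Scn4a lies at -1.23, -1.31 and -1.67 in the KO panels of 7 and 14 days and the Tg panel, and at 1.99 and 2.55 in the control age panels.

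The comparison at postnatal day 7 asked how ventricles labelled Tg differed from controls of the same age. Scn4a was lower in Tg libraries, with a 3.20-fold lower mean, Scn10a was also lower, and Scn7a was slightly higher. Of the 6 genes, 3 were called (1 higher and 2 lower), beside 30.7% of 15893 genes tested (14.9% higher and 15.8% lower). The median log2 fold change of the 6 genes was -0.19, against 0.00 over all genes tested. The KO comparisons of 7 and 14 days and this one share no library.

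Scn4a was at 2.28, 2.44, 1.68 and 2.62 CPM in Tg libraries, against 7.64, 7.08 and 6.91 CPM in controls. The groups were far apart and each was tight, with a log2 fold change of -1.67 ± 0.14 (edgeR adjusted p = 2.7e-06). Cardiomyocyte markers stood at 43120 to 48626 CPM in Tg libraries and 44084 to 45465 CPM in controls, with 2 of 8 higher and 2 lower. Scn4a was thus lower in libraries labelled Tg than in their controls, as it was in libraries labelled KO.

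Scn10a was at 5.77, 4.40, 3.68 and 5.41 CPM in Tg libraries, against 6.17, 8.12 and 9.16 CPM in controls, and the groups did not overlap. Its log2 fold change was -0.70 ± 0.16 (edgeR adjusted p = 0.0055). All 6 conduction system markers were lower in the same libraries, with sums of 112 to 138 CPM in Tg libraries and 260 to 277 CPM in controls, and their part in the Scn10a value was not tested. Scn7a was at 12.9, 14.6, 12.4 and 12.8 CPM in Tg libraries, against 10.55, 10.8 and 9.33 CPM in controls. The ranges were separate but close, and the log2 fold change was 0.37 ± 0.09 (edgeR adjusted p = 0.0061). Among other cells' markers, 5 of 8 fibroblast markers and 4 of 8 Schwann cell markers were higher and 0 lower; their sums were 5090 to 5928 and 27.3 to 33.2 CPM in Tg libraries, against 4191 to 4838 and 24.8 to 30.9 CPM in controls. The calls of Scn10a and Scn7a were lost when all 27 libraries shared 1 fit (edgeR adjusted p = 0.322 and 0.534).

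The beta subunit genes were all near or under 2 CPM at this age, and none passed. Scn3b was at 1.85, 1.64, 1.57 and 1.34 CPM in Tg libraries, against 1.26, 1.27 and 1.30 CPM in controls. The ranges did not overlap, yet the log2 fold change of 0.33 ± 0.18 did not pass (edgeR adjusted p = 0.186). Scn4b had 12, 2, 5 and 3 counts in Tg libraries, against 20, 13 and 9 counts in controls. These ranges overlap, and the log2 fold change of -1.30 ± 0.51 missed the threshold (edgeR adjusted p = 0.0703). With no filter on low counts it passed (-1.29 ± 0.44, edgeR adjusted p = 0.0220). Scn2b was at 0.653, 0.594, 0.429 and 0.672 CPM in Tg libraries, against 0.561, 0.447 and 0.351 CPM in controls, with a log2 fold change of 0.37 ± 0.29 (edgeR adjusted p = 0.370).

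The control libraries were compared across postnatal days 1, 7 and 60. Day 60 controls carry the time labels of the knockout and the younger controls do not, so age and kind of control cannot be told apart there. Scn4b was under 1 CPM in every library of days 1 and 7, and at day 60 its mean was 105-fold that of day 7. Scn4a and Scn7a rose over both intervals, Scn2b rose and Scn10a fell from the first week to day 60, and Scn3b did not pass in any interval. Between days 7 and 1, 2 of the 6 genes were called, both higher at day 7, beside 23.5% of 16388 genes tested (12.3% higher and 11.2% lower). Between days 60 and 7, 4 were higher and 1 lower, beside 69.3% (33.3% higher and 36% lower), and between days 60 and 1 the counts were the same, beside 73.7% (35.1% higher and 38.6% lower). The age comparisons share control libraries with each other, and the day 7 controls also served the Tg comparison. Scaled by total counts, 18.0% and not 48.1% of all calls at day 60 against day 7 were higher, 19.3% and not 47.6% against day 1, and 41.0% and not 52.4% at day 7 against day 1.

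Scn4b had 13, 4, 27 and 8 counts at day 1 (0.426, 0.130, 0.863 and 0.264 CPM) and 20, 13 and 9 counts at day 7 (0.701, 0.447 and 0.316 CPM). In the 7 day 60 controls its lowest, median and highest levels were 38.9, 46.1 and 70.4 CPM, far above every younger library. The log2 fold change was 6.64 ± 0.33 at day 60 against day 7 (edgeR adjusted p = 4.6e-10) and 0.20 ± 0.49 at day 7 against day 1 (edgeR adjusted p = 0.805).

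Scn4a was at 0.721, 0.749, 3.13 and 2.61 CPM at day 1, at 7.64, 7.08 and 6.91 CPM at day 7, and at 32.2, 41.6 and 61.9 CPM (lowest, median, highest) in the 7 controls of day 60. No ages overlapped, and the day 1 libraries fell into a lower and a higher pair. The log2 fold change was 1.99 ± 0.36 at day 7 against day 1 (edgeR adjusted p = 0.0012) and 2.55 ± 0.32 at day 60 against day 7 (edgeR adjusted p = 5.4e-06). Scn7a was at 3.87, 3.65, 9.01 and 5.48 CPM at day 1, at 10.55, 10.8 and 9.33 CPM at day 7, and at 23.6, 25.4 and 40.1 CPM at day 60. The order by age was the same as for Scn4a, with log2 fold changes of 0.89 ± 0.26 at day 7 against day 1 (edgeR adjusted p = 0.0237) and 1.53 ± 0.25 at day 60 against day 7 (edgeR adjusted p = 5.8e-05). The first of these calls was lost when any of 4 of the 7 libraries of days 1 and 7 was left out (day 7 library 1 or 2, day 1 library 1 or 2). Without day 1 libraries 3 and 4, the higher pair, the values at day 7 against day 1 were 3.29 ± 0.26 for Scn4a and 1.45 ± 0.21 for Scn7a, both called. Leaving out the higher reference libraries enlarges a rise by itself, so this fit is no support for either call. At day 60 against day 7, 8 of 8 cardiomyocyte markers rose (sums of 65758 to 73641 CPM, against 44084 to 45465 CPM) and 4 of 7 tested Schwann cell markers rose (28.6 to 38.1 CPM, against 24.8 to 30.9 CPM). Of the fibroblast markers 6 of 8 fell and 1 rose over that interval, with sums of 1188 to 1507 CPM at day 60 and 4191 to 4838 CPM at day 7. The part of these markers in the values above was not tested.

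Scn10a was at 8.95, 8.99, 5.59 and 5.52 CPM at day 1, at 6.17, 8.12 and 9.16 CPM at day 7, and at 2.80, 3.88 and 5.24 CPM (lowest, median, highest) at day 60. Days 1 and 7 overlapped and day 60 lay below both, with a log2 fold change of -0.98 ± 0.22 at day 60 against day 7 (edgeR adjusted p = 0.0011). Over the same interval, 4 of 6 conduction system markers fell and 1 rose, with sums of 113 to 168 CPM at day 60 and 260 to 277 CPM at day 7. Scn2b was at 0.229, 0.456, 0.288 and 0.595 CPM at day 1, at 0.561, 0.447 and 0.351 CPM at day 7, and at 0.702, 0.878 and 1.42 CPM at day 60. Its log2 fold change at day 60 against day 7 was 1.03 ± 0.30 (edgeR adjusted p = 0.0068), and 0.43 ± 0.30, not called, with scaling by total counts (edgeR adjusted p = 0.194). Scn3b stayed between 1.05 and 1.30 CPM in all 7 libraries of days 1 and 7, and its day 60 levels of 0.690, 1.19 and 2.12 CPM lay on both sides of them. The log2 fold change at day 60 against day 7 was -0.04 ± 0.28 (edgeR adjusted p = 0.909).

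Across the 7 groups the order of mean CPM differed by gene. For Scn4a it ran, low to high, through day 1 controls, Tg, day 7 controls, KO of 14 days, KO of 7 days, controls of 14 days and controls of 7 days. In that order Tg and day 1 controls overlapped, as did the 2 KO groups and the 2 day 60 control groups. For Scn4b the order was Tg, day 1 controls, day 7 controls, KO of 14 days, KO of 7 days, controls of 14 days and controls of 7 days. Its first 3 groups overlapped, the 2 KO groups overlapped through KO library 3 of 7 days, and KO groups lay between the young and the adult controls. Scn7a was lowest at day 1 and highest in KO of 14 days. For Scn3b the 5 groups without the KO label all averaged under 2 CPM, and the 2 KO groups stood above them, at 3.20 ± 1.28 CPM at 7 days (SD, n = 5) and 6.95 ± 2.48 CPM at 14 days (SD, n = 4). Neighbouring groups of Scn10a and of Scn2b overlapped throughout.

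Levels of different genes were compared per length, as CPM per kb of annotated exon. In controls of 7 days the order was Scn4b at 11.8 ± 2.66, Scn4a at 6.69 ± 1.504, Scn7a at 3.63 ± 0.581 and Scn10a at 0.486 ± 0.124 CPM per kb (SD, n = 4). Scn3b, at 0.253 ± 0.118, and Scn2b, at 0.241 ± 0.0534 CPM per kb, did not differ beyond their spread (SD, n = 4). At day 1 Scn10a led at 0.911 ± 0.247 CPM per kb, within the spread of Scn7a at 0.750 ± 0.338, and Scn4b was at 0.0845 ± 0.0639 (SD, n = 4). In controls the gene with the highest mean per length was thus an alpha subunit gene at day 1 and the beta subunit gene Scn4b at day 60. In both KO groups it was the alpha subunit gene Scn7a, at 4.01 ± 1.41 CPM per kb at 7 days (SD, n = 5), within the spread of Scn4b at 3.59 ± 1.77, and at 6.59 ± 1.03 at 14 days (SD, n = 4), above Scn4b at 0.897 ± 0.350.

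**Figure D3:**
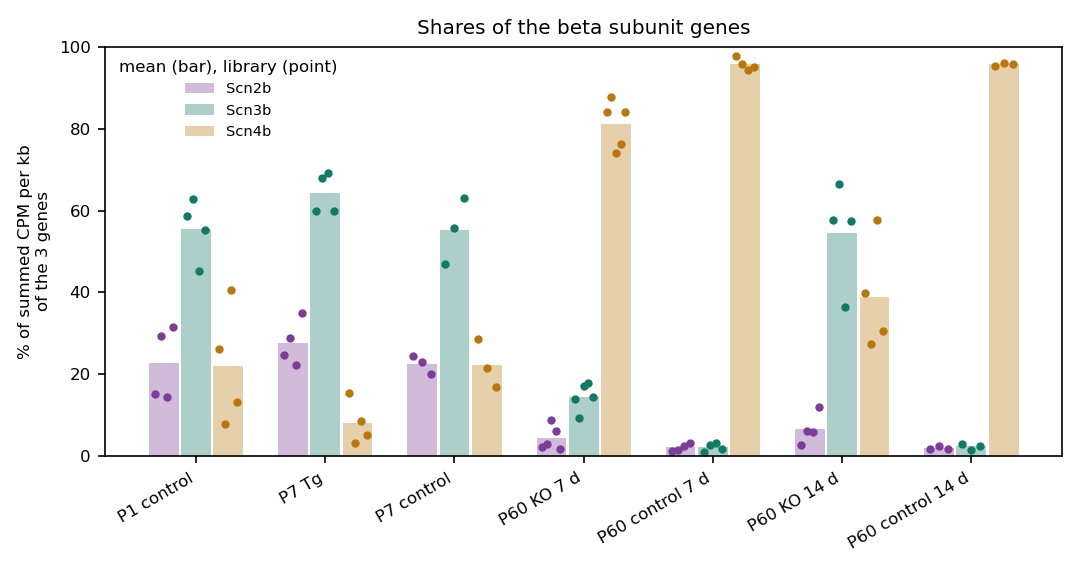
Share of each beta subunit gene in the summed CPM per kb of Scn2b, Scn3b and Scn4b, in percent, with bars at the group mean and points for libraries. In KO libraries of 14 days Scn4b takes 38.8% and Scn3b 54.5%, whereas Scn4b takes 95.7% in their controls.

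Among these 3 beta subunit genes, the makeup per length differed with age and with the KO label. In libraries labelled KO at 14 days, Scn3b made up 54.5 ± 12.8% and Scn4b 38.8 ± 13.6% of their summed CPM per kb (SD, n = 4), against 2.34 ± 0.726% and 95.7 ± 0.434% in controls (SD, n = 3). Scn4b took 27.3 to 57.6% in these KO libraries, so in 1 of the 4 it was still the larger part. At 7 days Scn4b took 81.2 ± 5.80% in libraries labelled KO (SD, n = 5) and 95.8 ± 1.41% in controls (SD, n = 4), with ranges of 74.1 to 87.8% and 94.4 to 97.7% that did not overlap. Scn3b took 14.5 ± 3.37% and 2.08 ± 0.922%. In the young ventricle Scn3b had the largest of the 3 mean shares, at 64.2 ± 5.11% in Tg libraries (SD, n = 4), 55.2 ± 8.11% in day 7 controls (SD, n = 3) and 55.5 ± 7.54% in day 1 controls (SD, n = 4). It took as little as 46.9% in a day 7 control and 45.1% in a day 1 control, where Scn4b took 40.5%. These shares rest on low counts, down to 2 for Scn4b in a Tg library and 7 for Scn2b in a day 1 control. The sum of the 3 genes was 2.32 ± 0.441 CPM per kb in KO libraries of 14 days and 8.64 ± 0.471 in their controls, against 0.429 ± 0.0585 in day 7 controls. The shares are descriptions that rest on the same levels as the tests above.

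Other genes of the channel complex were described from a list of 24 genes whose proteins bind, anchor or modify cardiac sodium channels, of which 23 were tested (Rangrf had too few counts). At 7 days 1 was higher and 10 were lower in libraries labelled KO, beside 50.7% of all genes tested (26.4% higher and 24.3% lower). Their median log2 fold change was -0.41, against 0.03 over all genes. Fgf13, an intracellular fibroblast growth factor that binds the channel's tail and modulates its gating, was lower by a log2 fold change of -1.73 ± 0.33 (edgeR adjusted p = 0.0015). Tcap, the titin cap protein, was at -1.32 ± 0.27, and Ptpn3, a tyrosine phosphatase, at -1.30 ± 0.17. Cxadr, an adhesion receptor of the intercalated disc, was higher at 0.53 ± 0.12. At 14 days 3 were higher and 12 lower, beside 44.2% of all genes (21.8% higher and 22.4% lower), with a median of -0.39 against 0.01. Fgf13 was at -2.25 ± 0.11 (edgeR adjusted p = 5.7e-07), Sptbn4, a spectrin that anchors membrane proteins, at -1.54 ± 0.41, and Ptpn3 at -1.26 ± 0.13. Without control library 7 Sptbn4 was at -1.27 ± 0.47 and not called (edgeR adjusted p = 0.0594). Higher at 14 days were Fgf14, another intracellular fibroblast growth factor, at 0.82 ± 0.24, Cxadr at 0.49 ± 0.16 and Slmap, a sarcolemma-associated protein, at 0.30 ± 0.10; each of these 3 calls was lost in 3 or 4 of the 7 fits that left out a library. In the test between the times 0 of the 23 passed in either direction.

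In Tg libraries 3 of the 23 tested partner genes were higher and 9 lower, beside 30.7% of all genes (14.9% higher and 15.8% lower), with a median of -0.08 against 0.00. Tcap was at 0.81 ± 0.10, Slmap at 0.28 ± 0.05 and Ptpn4, a tyrosine phosphatase, at 0.28 ± 0.06, whereas Cxadr was at -0.76 ± 0.08, Ptpn3 at -0.47 ± 0.09 and Fgf13 at -0.47 ± 0.08. With all 27 libraries in 1 fit, 5 of these 6 calls were lost (edgeR adjusted p = 0.0602 for Tcap, 0.154 for Slmap, 0.343 for Ptpn4, 0.112 for Ptpn3 and 0.341 for Fgf13), and that of Cxadr was kept. Cxadr was higher in libraries labelled KO at both times and lower in Tg libraries. From day 7 to day 60 in controls, 13 were higher and 7 lower at day 60, beside 69.3% of all genes (33.3% higher and 36% lower). The largest of those rises were Tcap at 2.83 ± 0.19, Ptpn3 at 1.49 ± 0.12 and Usp2, a deubiquitinating enzyme, at 1.30 ± 0.08, and the largest falls were Fgf12 at -1.40 ± 0.56, Gja1, the gap junction protein connexin 43, at -1.10 ± 0.13 and Cav3, the muscle caveolin, at -0.44 ± 0.06. The call of Fgf12 was lost in 5 of the 10 fits that left out a library. Between days 7 and 1, 7 were higher and 5 lower, beside 23.5% of all genes, and between days 60 and 1, 14 were higher and 6 lower, beside 73.7%. At day 7 against day 1 the largest rises were Ptpn3 at 1.31 ± 0.13, Camk2b, a calcium-dependent kinase subunit, at 1.28 ± 0.24 and Tcap at 1.03 ± 0.18. The largest falls there were Fgf11 at -0.66 ± 0.17, Ank3, an ankyrin, at -0.57 ± 0.10 and Nedd4, a ubiquitin ligase, at -0.37 ± 0.06. The call of Fgf11 was lost without day 7 library 2, with all 27 libraries in 1 fit and with a replicate block (edgeR adjusted p = 0.0573, 0.0572 and 0.0937).

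**Figure D4:**
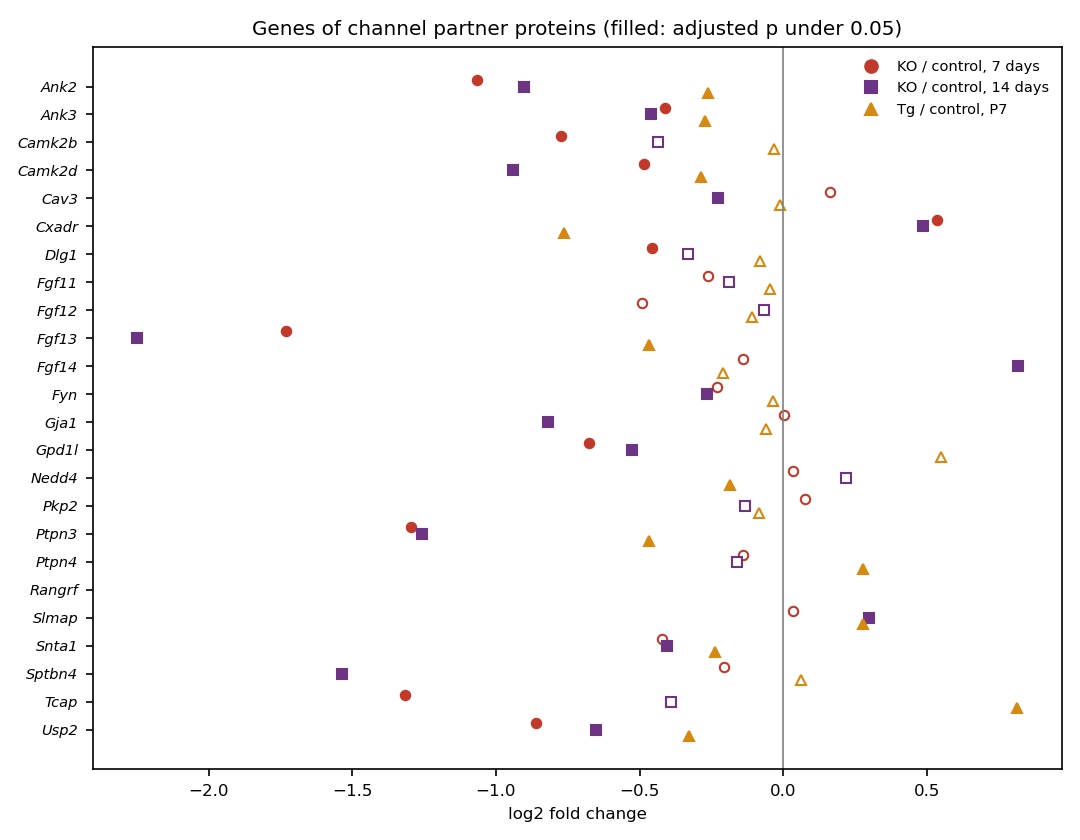
Log2 fold changes of the 24 partner genes in the KO comparisons of 7 and 14 days and the Tg comparison, filled where the edgeR adjusted p is under 0.05 (Rangrf was not tested and has no points). Fgf13 is the lowest point in both KO comparisons, at -1.73 and -2.25.

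Of the 8 other voltage-gated sodium channel genes, 4 passed the filter on low counts. In libraries labelled KO, 1 was higher and 1 lower at 7 days, beside 50.7% of all genes, and 2 were higher and 0 lower at 14 days, beside 44.2%. In Tg libraries 1 was higher and 1 lower, beside 30.7%. Between days 60 and 7 in controls, 3 were higher and 1 lower, beside 69.3%, and at day 7 against day 1, 1 was higher and 0 lower, beside 23.5%. Nothing is read from these counts of 4 genes. The test between the times called 0 of them.

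As a description of pattern, each gene with a mean of at least 1 CPM was set beside all genes with a mean of at least 5 CPM by Pearson's r of log2(CPM + 0.5) over the 27 libraries. The libraries share ages and labels, so large r values come easily. Scn4b was most like Acsl6 (r = 0.980), D17Wsu92e (0.974) and Psap (0.971). Among the genes most like Scn4a were Enho (0.966) and Gpr27 (0.957), and Scn7a was most like Serping1 (0.980), Crispld2 (0.967) and Rnase4 (0.965). For Scn3b the likest genes were N4bp2l2 (0.914), Arhgap44 (0.902) and Kcnj14 (0.876), and for Scn10a Gm10435 (0.835), Tmem9 (0.831) and Fam78a (0.823). Among the 6 genes, Scn4a and Scn4b were most alike (0.928), and Scn10a ran against Scn4b (-0.534), Scn7a (-0.522) and Scn4a (-0.502). Scn3b and Scn4b had an r of only 0.102. That value pools ages and labels, and in KO libraries of 14 days these genes went opposite ways (log2 fold changes of 2.62 and -3.21).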

How the data were processed

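The authors deposited raw counts per Ensembl gene and library, made from ventricle RNA extracted with TRIzol and a column kit and sequenced by BGI on DNBseq, per the labels' protocols. Per the submitters' processing notes, the tools were STAR, featureCounts, DESeq2 and Salmon and the build was GRCm38 (mm10), without roles, order or versions. Strand setting, annotation release and filters are not given in the sources used here. GENCODE M21 gave symbols for 55141 gene identifiers and none for 346.

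The 6 genes and all lists were chosen with earlier results of these data known. Counts were tested with edgeR 4.0.16 (R 4.3.3): filterByExpr with a minimum count of 10, TMM, the quasi-likelihood F test and Benjamini-Hochberg adjustment over all genes tested. Genes were called at an adjusted p under 0.05. Each SE was computed from a log2 fold change's size divided by the root of its F statistic. KO and Tg fits held only the groups compared, the test between times the 16 day 60 libraries, and the age tests the 14 controls. Correlations used log2(CPM + 0.5). Named partner genes are at most the 3 largest rises and 3 largest falls among those called. The code was tested on simulated data. Library pairs within groups differed by a chi-square per degree of freedom of 6.34 to 147 over 40 pairs, so each counted as 1 sample. Alternatives were RLE and total count scaling, no filter, DESeq2 1.42.0, all 27 libraries in 1 fit, a replicate block and leaving out libraries. Some values of single genes are not reported here.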

Additional observations from a re-analysis of the deposited data

How the results depend on the processing

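Values are log2 fold changes unless called counts. Where leaving out 1 library changed the direction of a named gene, the range over all such fits is given. Where it changed only the call of a named gene, this is given with the results above. The cause was not tested in either case. Total count scaling moved the median of all genes to 0.45 (KO, 7 days), 0.39 (KO, 14 days), -0.65 (day 60 against 7) and -0.71 (day 60 against 1), and under it Scn10a at 7 days was 0.18, Scn2b at 14 days 0.22, Mbnl1 at 14 days 0.034 and Scn3b at day 60 against day 1 -0.49. The Scn2b rises at day 60 were not called under it (0.43 against day 7 and 0.59 against day 1). Without KO libraries 1 and 5 of 7 days, Scn10a was 0.14 and Mbnl1 -0.21. With 1 library left out, the 7-day values ran from -0.0019 to 0.29 for Scn7a and from -0.11 to 0.16 for Mbnl1. The 14-day values ran from -0.17 to 0.55 for Scn10a and from -0.39 to 0.11 for Scn2b. The difference between the times ran from -0.26 to 0.092 for Scn4a. At day 7 against day 1 they ran from -0.14 to 0.82 for Scn4b and from -0.019 to 0.25 for Scn10a, which was -0.20 without day 1 libraries 3 and 4. At day 60 against day 7 Scn3b ran from -0.18 to 0.089, and between day 60 control groups Scn10a ran from -0.19 to 0.26.

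Counts of genes called for the difference between the times were 0 in edgeR, 2 with total count scaling, 13 with no filter, 141 with DESeq2, 52 with all 27 libraries in 1 fit, 3 without KO libraries 1 and 5, and 0 to 21 with 1 library left out (21 without KO library 2 of 7 days). Between day 60 control groups the 5 calls became 37 with no filter, 72 with DESeq2, 3 with all 27 libraries and 2 to 7 with 1 left out. At day 7 against day 1 the 3844 calls ran from 2508 to 4492 with 1 library left out, 2508 without day 7 library 2 and 2536 without day 7 library 1, and the members called from 1 to 2. For Tg the 4878 calls became 973 with all 27 libraries in 1 fit, with 1 member called (Scn4a).

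No pairing by replicate number was seen, since no pair of groups had every same-number correlation over 0.1. With only 2 to 4 such numbers per pair of groups, this cannot exclude pairing. A replicate block gave -0.80 for Scn10a (edgeR adjusted p = 0.0261) at 14 days, on 4 libraries, and -0.71 for its difference between the times. It gave 1.06 for Scn3b (edgeR adjusted p = 0.128) and -0.041 for Mbnl1 at 7 days, 0.23 for Scn3b at day 60 against day 7, and 1624 calls with 1 member at day 7 against day 1, where Scn7a was no longer called.

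Counts were low for Scn2b in all libraries and for Scn4b at days 1 and 7. Scn4a and Scn4b kept their direction and call in both KO comparisons under every alternative run, and Scn3b did so at 14 days.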
